A study of Mus musculus with 6 samples.

Results

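Endothelial cells line blood vessels and are recognised by a set of junction proteins, surface glycoproteins and secreted matrix proteins, 10 of whose genes are described here over 6 arrays of sorted mouse mesoderm. The genes are Cdh5, Pecam1, Esam, Icam2, Cldn5, Emcn, Cd34, Eng, Egfl7 and Mmrn2. They were represented by every probe set that the platform annotation assigns to 1 of these symbols alone, which gave 18 of the 45101 probe sets. Of the 10 genes, 6 had 1 probe set each, Cdh5 and Eng had 2, and Egfl7 and Mmrn2 had 4. Highest in the cells positive for an Scl reporter were the junction genes Cdh5, Pecam1 and Esam and the surface genes Icam2 and Cd34. So were the secreted Egfl7 and Mmrn2, whereas Eng differed little between groups and Emcn was dim on every array. None of these differences passed adjustment over all probe sets tested.

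Endothelial cells hold to each other through adherens junctions built on VE-cadherin and through tight junctions built on claudins, while immunoglobulin-type molecules such as Pecam1, Esam and Icam2 add further contacts. In the embryo, endothelium and the first blood cells arise close together from mesoderm that carries the VEGF receptor Flk1 (gene Kdr). A specialised endothelium, the haemogenic endothelium, gives rise to blood and needs the basic helix-loop-helix factor Scl (gene Tal1), so several of these surface genes are shared by vessel cells and by young blood cells.

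The cells came from mouse embryonic stem (ES) cells kept for 2 days in pre-differentiation medium, plated at 100000 cells per well and grown as embryoid bodies, floating aggregates that form early germ layers, until day 4. The WT Scl+ and WT Scl- groups (n = 2 arrays each) were Flk1+ cells of 1 reporter line, derived from R1 ES cells of a (129/Sv x 129/Sv-CP)F1 blastocyst, in which human CD4 was knocked in at Scl; they were split into those with human CD4 on their surface and those without. The SclKO group (n = 2) was Flk1+ cells of 1 knockout line derived from J1 ES cells of 129S4/SvJae origin, sorted on Flk1 alone by the sorting protocol although the titles call them Scl negative. Genotype, ES line and gate therefore cannot be told apart in comparisons with SclKO. No label says that the arrays of a group came from separate cultures, so p-values here reflect array-to-array spread alone, which may be technical.

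Levels are natural logs of the deposited values, and differences are in log units. RMA, the tool the submitters name, normally gives log2 values, whereas what they deposited is on an unlogged scale with no base given. If their natural log is the RMA log2 value, 1 log unit is 2-fold, and if they are linear it is 2.72-fold; both folds are given, the former first. Between 1040 and 1153 probe sets per array exceeded 65535, the ceiling of a 16-bit scanner, and the highest value of an array was 2593513 to 2822995. Linear signals of such a scanner would not reach these values. The former, smaller fold is therefore the one to read, and the latter is kept only as an upper reading. A value was called dim if it lay at or under its array's 40th percentile (4.54 to 4.59). The array WT Scl+ replicate 2 stood apart from the rest, with Pearson r across tested probe sets of 0.9371 to 0.9637 with the other arrays, where the other pairs had 0.9725 or more. Tal1, the targeted gene, was at 8.65 and 8.78 in WT Scl+, 6.52 and 7.97 in WT Scl-, and 5.71 and 6.14 in SclKO; it was lowest in SclKO and the WT Scl- replicates were far apart. The sort marker Kdr lay between 10.83 and 11.35 on all 6 arrays. Each comparison was fitted with limma over 28362 probe sets, which included 16 of the 18; the Emcn probe set and 1 of the Mmrn2 probe sets were dim on all 6 arrays and were not tested.

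Comparing WT Scl+ with WT Scl- sets the reporter-positive part of Flk1+ cells beside the reporter-negative part of the same line. Tal1 in the reporter-negative part (6.52 and 7.97) was above the limit for dim values, but so it was in SclKO (5.71 and 6.14). A value above that limit therefore does not show Scl transcript by this probe set. With 1 probe set per gene (the one with the highest mean over the arrays), the difference was above 0 for the 9 genes tested by it, against 43.1% of all tested probe sets; their median was 1.43 log units, that of all tested -0.045, and 6 of them exceeded 1 log unit, which 1.64% of all tested did. With the untested, dim Emcn the median over the 10 genes was 1.27. Both WT Scl+ arrays were above both WT Scl- arrays for 13 of the 16 tested probe sets (14 of all 18), where the share of such non-overlap over all tested was 16.6%. limma called 0 of the 16 tested probe sets at an adjusted p under 0.05, and 0% of all tested; at an unadjusted p under 0.05, 11 of the 16 were higher in WT Scl+, against 4.44% of all tested. Cd34 and Mmrn2 1439518_at were above the limit for dim values on both WT Scl+ arrays and otherwise on WT Scl- replicate 2 alone. They passed the filter only through WT Scl+, where they are high, so their place among the 13 and the 11 is no support. In bulk RNA, fewer cells of a type and less RNA per cell cannot be told apart.

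**Figure D1:**
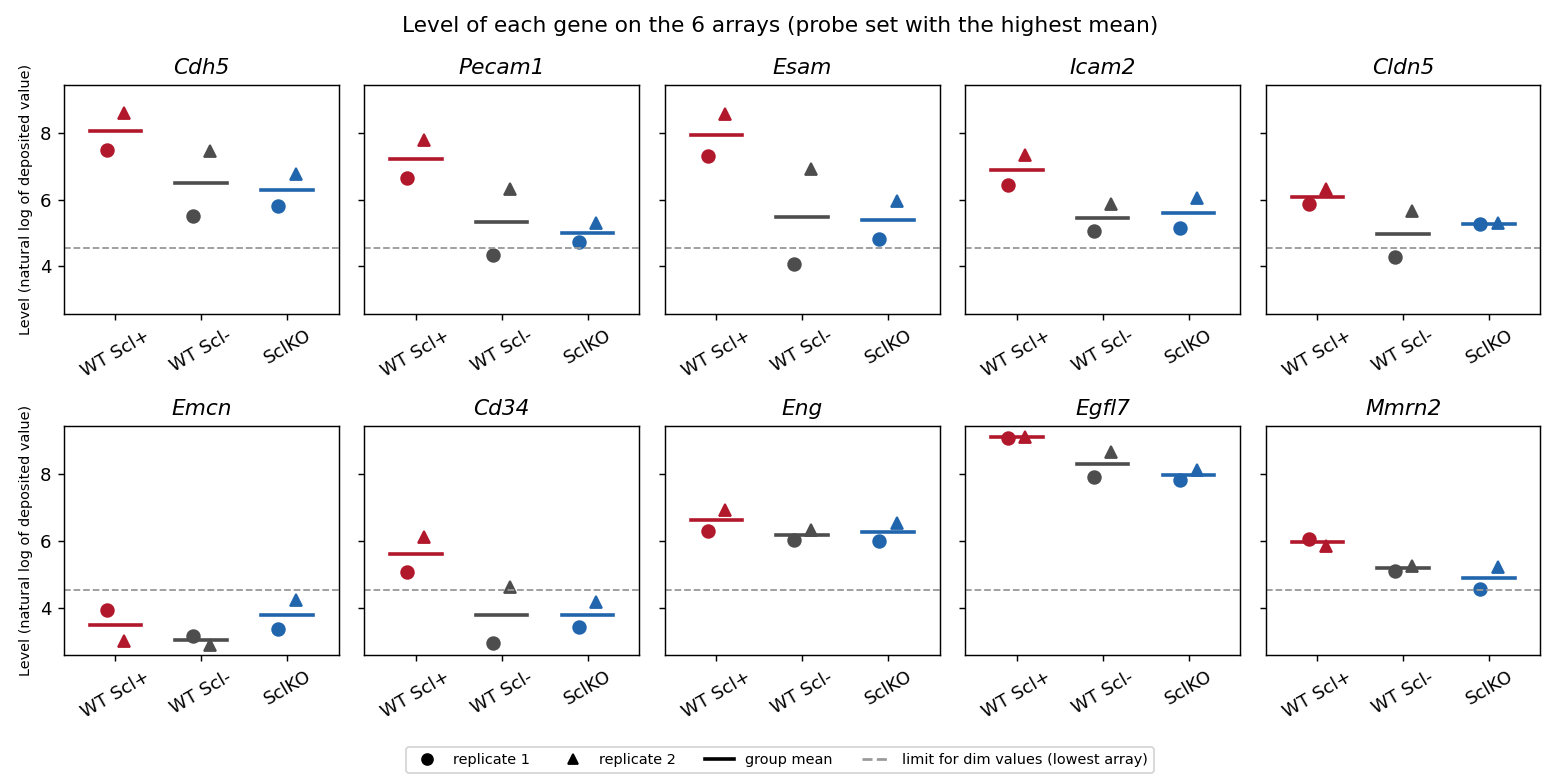
Level of each of the 10 genes (natural log of the deposited value, probe set with the highest mean) on the 2 arrays of each group; symbols are replicates, bars are group means, and the dashed line is the lowest of the arrays' limits for dim values. For 8 of 10 genes the 2 WT Scl+ arrays lie above both WT Scl- arrays and both SclKO arrays, Eng overlaps, and Emcn lies under the line throughout.

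Cdh5 encodes VE-cadherin, the adhesion molecule of endothelial adherens junctions. By its brighter probe set, WT Scl+ cells were at 7.48 and 8.61, WT Scl- cells at 5.51 and 7.47 and SclKO cells at 5.82 and 6.77. WT Scl+ replicate 1 and WT Scl- replicate 2 were almost level, so the groups were separated by 0.01 log units at their nearest arrays. WT Scl+ exceeded WT Scl- by 1.55 log units (SE 0.72, 2.93-fold or 4.72-fold, limma adjusted p = 0.585). The second Cdh5 probe set was at 7.15 and 8.22 in WT Scl+, 3.91 and 6.62 in WT Scl-, and 5.89 and 5.8 in SclKO. It gave 2.43 log units (SE 0.85, limma adjusted p = 0.497), or 2.09 with the dim value set to the limit.

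Esam and Pecam1, immunoglobulin-type adhesion molecules of endothelial contacts and platelets, had the same order of arrays. Esam was at 7.31 and 8.58 in WT Scl+, 4.07 and 6.91 in WT Scl-, and 4.83 and 5.95 in SclKO. Its WT Scl- arrays were 2.84 log units apart, the widest gap of any of the 18 probe sets within a group. Esam differed by 2.46 log units between WT Scl+ and WT Scl- (SE 0.96, 5.48-fold or 11.6-fold; 4.6-fold or 9.04-fold with the dim array at the limit; limma adjusted p = 0.521). Pecam1 was at 6.64 and 7.78 in WT Scl+, 4.33 and 6.32 in WT Scl-, and 4.72 and 5.3 in SclKO. As for Esam, only WT Scl- replicate 1 was dim, and WT Scl- replicate 2 lay close under WT Scl+ replicate 1. The Pecam1 difference was 1.88 log units (SE 0.69, limma adjusted p = 0.506).

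Icam2, an adhesion molecule that binds leukocyte integrins, and Cldn5, the claudin of endothelial tight junctions, had narrower ranges. Icam2 was at 6.43 and 7.34 in WT Scl+, 5.05 and 5.87 in WT Scl-, and 5.14 and 6.06 in SclKO. All 4 arrays outside WT Scl+ lay under both WT Scl+ arrays. WT Scl+ exceeded WT Scl- by 1.43 log units (SE 0.46, 2.69-fold or 4.16-fold, limma adjusted p = 0.473). Cldn5 was at 5.86 and 6.32 in WT Scl+, 4.28 and 5.67 in WT Scl-, and 5.27 and 5.29 in SclKO. Here too WT Scl- replicate 1 was dim, and WT Scl+ exceeded WT Scl- by 1.12 log units (SE 0.44, limma adjusted p = 0.524), or by 0.97 with that value at the limit.

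Cd34 and Emcn encode sialomucins, heavily glycosylated surface proteins, of which Cd34 is also carried by blood progenitors. Cd34 was at 5.07 and 6.12 in WT Scl+, 2.93 and 4.61 in WT Scl-, and 3.41 and 4.17 in SclKO, with 3 of the 6 arrays dim. It was above the limit on both WT Scl+ arrays and, barely, on WT Scl- replicate 2. The difference of 1.83 log units (SE 0.62, limma adjusted p = 0.49) was 1 log unit with dim values at the limit, or 2-fold or 2.73-fold. Emcn lay between 2.89 and 4.22 on the 6 arrays, under the limit on each, so its differences (0.46, 0.32 and 0.78 log units in the 3 comparisons; -0.03, 0.01 and -0.02 at the limit) are not read.

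Eng encodes endoglin, a co-receptor for BMP and TGF-beta ligands that early mesoderm also carries. Its brighter probe set was at 6.31 and 6.92 in WT Scl+, 6.03 and 6.32 in WT Scl-, and 6.01 and 6.53 in SclKO. The groups overlapped in each comparison, and the range over the 6 arrays was 0.91 log units, the smallest of the 10 genes. WT Scl+ minus WT Scl- was 0.44 log units (SE 0.28, 95% confidence interval -0.25 to 1.13, limma adjusted p = 0.688). The other probe set gave 0.27 log units (SE 0.27, limma adjusted p = 0.79).

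Egfl7, a secreted protein of the endothelial matrix whose gene hosts the microRNA miR-126, had 4 probe sets, which differed in size but not in sign. The probe set with the highest mean was at 9.08 and 9.13 in WT Scl+, 7.92 and 8.67 in WT Scl-, and 7.84 and 8.14 in SclKO. The 2 WT Scl+ arrays were 0.05 log units apart by this probe set, and 0.57, 0.46 and 1.48 by the others. WT Scl+ exceeded WT Scl- by 0.81 log units (SE 0.27, 1.76-fold or 2.26-fold, limma adjusted p = 0.481). The other 3 probe sets gave 1.17 (SE 0.38), 1.64 (SE 0.61) and 1.1 log units (SE 0.49).

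Mmrn2, an EMILIN-family matrix protein that binds the endothelial receptors Cd93 and Clec14a, was at 6.06 and 5.86 in WT Scl+, 5.1 and 5.25 in WT Scl-, and 4.55 and 5.23 in SclKO by its brightest probe set. By the probe set with the highest mean, no other gene of the 10 had its WT Scl+ and WT Scl- arrays this close within both groups. Other Mmrn2 probe sets were not as close. Replicate 2 minus replicate 1 was 0.94 in WT Scl+ and 1.02 in WT Scl- by 1437123_at, and 1.12 in WT Scl- by 1439518_at. The difference by the brightest probe set was 0.78 log units (SE 0.25, 1.72-fold or 2.19-fold, limma adjusted p = 0.473). Of the other Mmrn2 probe sets, 1439518_at gave 1.12 log units (SE 0.37; 0.62 with dim values at the limit), 1437123_at gave 0.5 (SE 0.44) with overlapping arrays, and 1420276_x_at was dim throughout.

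**Figure D2:**
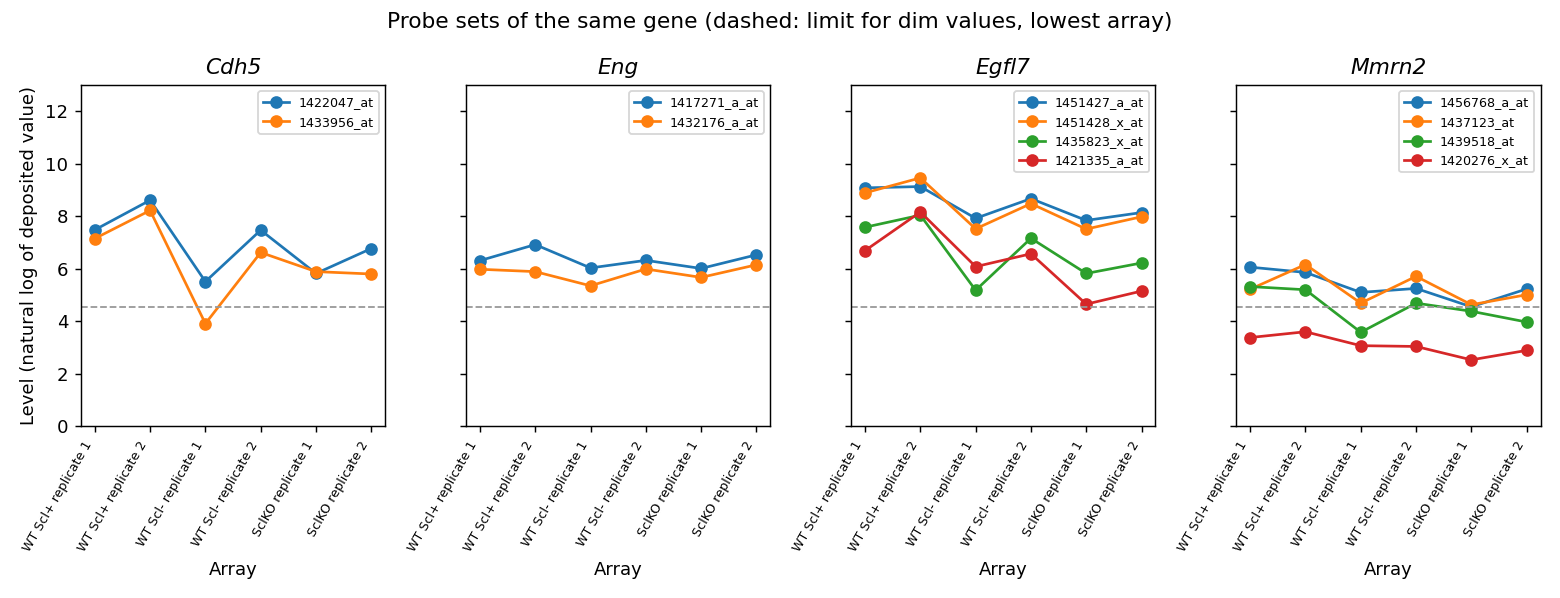
Levels (natural log of the deposited value) on the 6 arrays of every probe set of the 4 genes with more than 1; lines only join the values of a probe set, and the dashed line is the lowest limit for dim values. The Egfl7 probe sets share the drop from WT Scl+ replicate 2 to WT Scl- replicate 1, while 1421335_a_at alone of the Egfl7 probe sets lies lower on both SclKO arrays than on both WT Scl- arrays.

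The first comparison leaned most on WT Scl- replicate 1. The median over the 10 genes was 1.27 log units with all arrays, 1.61 without WT Scl+ replicate 1 and 1.82 without WT Scl- replicate 2. WT Scl- replicate 1 was the lowest array for 6 of the 10 genes, and without it the median over the 10 genes was 0.64 log units, with 0.57 for Cdh5 (1422047_at), 1.03 for Esam, 0.89 for Pecam1, 0.42 for Cldn5, 0.99 for Cd34 and 0.44 for Egfl7 (1451427_a_at). Icam2 and Mmrn2 (1456768_a_at) then differed by 1.02 and 0.71 log units. WT Scl+ replicate 2, the array apart from the rest, was the highest for 8 of 10 genes, and without it that median was 0.95 log units, with 0.99 for Cdh5 (1422047_at), 1.82 for Esam, 1.31 for Pecam1, 0.97 for Icam2 and 0.14 for Eng (1417271_a_at). Cdh5 (1433956_at) went from 2.43 to 1.07 log units, Egfl7 (1435823_x_at) from 1.64 to 0.65 and Egfl7 (1451428_x_at) from 1.17 to 0.69 without WT Scl- replicate 1, and Egfl7 (1421335_a_at) from 1.1 to 0.36 without WT Scl+ replicate 2.

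**Figure D3:**
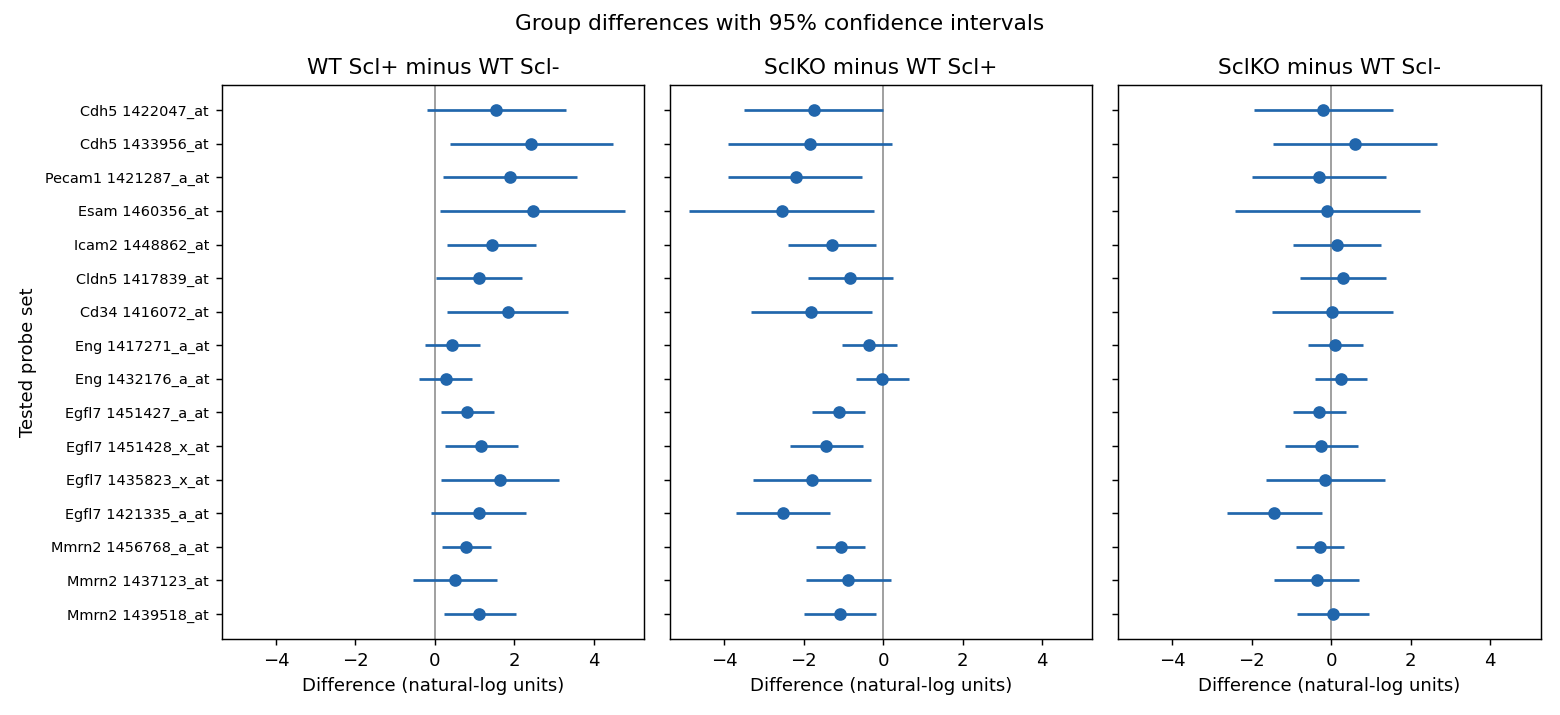
Difference in natural-log units between groups for the 16 tested probe sets, with 95% confidence intervals from the limma fit that are not adjusted for the number of probe sets; the vertical line is 0. All 16 points lie right of 0 for WT Scl+ minus WT Scl- and left of 0 for SclKO minus WT Scl+, and they scatter on both sides for SclKO minus WT Scl-.

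SclKO was next compared with WT Scl+, which sets Flk1+ cells without Scl beside reporter-positive cells, with line and gate also differing. It shares the WT Scl+ arrays with the first comparison, so the values of both are given and not compared. By 1 probe set per gene, the difference was below 0 for the 9 genes tested, against 43.1% of all tested probe sets, and their median was -1.28 log units, that of all tested 0.05; with Emcn it was -1.2. The arrays did not overlap for 14 of the 16 tested probe sets, or 15 of all 18 (SclKO below WT Scl+), where the share over all tested was 18.2%. limma called 0 of the 16 at an adjusted p under 0.05, and 0.0106% of all tested; at an unadjusted p under 0.05, 11 of the 16 were lower in SclKO, against 5.68% of all tested. In this comparison 2.07% of all tested differed by less than -1 log unit, as did 7 of the 9 genes. Cd34 and Mmrn2 1439518_at, which passed the filter only through WT Scl+, are again among the 14 and the 11.

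Among junction genes, Esam differed by -2.55 log units (SE 0.96, 5.86-fold or 12.8-fold, limma adjusted p = 0.353) and Pecam1 by -2.2 (SE 0.69, 4.6-fold or 9.04-fold, limma adjusted p = 0.293). Cdh5 differed by -1.75 (SE 0.72, limma adjusted p = 0.383) and by -1.84 log units (SE 0.85) in its 2 probe sets. Cldn5 differed by -0.82 log units (SE 0.44, limma adjusted p = 0.494), and its SclKO arrays were only 0.02 log units apart. For these 4 genes both SclKO arrays lay under both WT Scl+ arrays.

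Of the surface genes, Cd34 differed by -1.81 log units (SE 0.62; -1.03 with dim values at the limit; limma adjusted p = 0.326) and Icam2 by -1.28 (SE 0.46, limma adjusted p = 0.337). Eng gave -0.35 (SE 0.28, 95% confidence interval -1.04 to 0.34) and -0.02 log units (SE 0.27), with SclKO replicate 2 above WT Scl+ replicate 1 in each. The matrix genes had the lowest p-values of the 10. The Egfl7 probe set 1421335_a_at was at 6.69 and 8.16 in WT Scl+, 6.08 and 6.57 in WT Scl-, and 4.65 and 5.15 in SclKO. It differed by -2.52 log units between SclKO and WT Scl+ (SE 0.49, 5.75-fold or 12.5-fold, limma adjusted p = 0.166). Without WT Scl+ replicate 1 this was -3.26 log units with limma adjusted p = 0.0319; that fit leaves WT Scl+ with replicate 2 alone, the array apart from the rest, which is assumed to vary like the other groups. Over all leave-one-out fits the adjusted p lay between 0.0319 and 0.649. The other Egfl7 probe sets gave -1.12 (SE 0.27, limma adjusted p = 0.215), -1.43 (SE 0.38) and -1.79 log units (SE 0.61), and Mmrn2 (1456768_a_at) gave -1.07 (SE 0.25, limma adjusted p = 0.206).

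The median over the 10 genes was -1.13 log units without WT Scl+ replicate 2, with -1.92 for Esam, -1.63 for Pecam1, -1.18 for Cdh5 (1422047_at), -0.83 for Icam2 and -0.04 for Eng (1417271_a_at). All 5 genes then lay nearer 0 than with that array. Egfl7 (1451427_a_at) and Mmrn2 (1456768_a_at) were then at -1.09 and -1.17, while Egfl7 (1421335_a_at) went from -2.52 to -1.78 and Mmrn2 (1437123_at) from -0.87 to -0.4. Without SclKO replicate 1 the median over the 10 genes was -0.9 log units, and without SclKO replicate 2 it was -1.57.

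The last comparison, SclKO against WT Scl-, sets reporter-negative cells beside the knockout; Tal1 itself differed by -1.32 log units (SE 0.46). The members' levels lay close together on average, with a median difference of -0.1 log units over the 9 tested genes, 4 of them above 0 (52.1% of all tested) and 5 below (47.9%); with Emcn the median was -0.04. limma called 0 of the 16 tested probe sets at an adjusted p under 0.05, and 0.0106% of all tested; at an unadjusted p under 0.05, 1 of the 16 was lower in SclKO, against 2.77% of all tested. This does not show that the groups are alike, since the 95% confidence intervals were wide, for example -2.42 to 2.23 log units for Esam, -1.94 to 1.55 for Cdh5 (1422047_at), -0.97 to 1.26 for Icam2 and -0.97 to 0.36 for Egfl7 (1451427_a_at). For 5 of the 10 genes (Cdh5, Pecam1, Esam, Cldn5 and Cd34) both SclKO arrays lay between the 2 WT Scl- arrays. The sign therefore turned with the array left out: leaving out WT Scl- replicate 1 gave -1.52 log units for Esam, and leaving out WT Scl- replicate 2 gave 1.32.

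Of the tested member probe sets, Egfl7 1421335_a_at differed most in this comparison. It was lower in SclKO without overlap, as 19.5% of all tested were, with a difference of -1.43 log units (SE 0.49, 2.69-fold or 4.16-fold, limma adjusted p = 0.895). With any single array left out it was -1.68 to -1.17, where the non-overlap alone fixes the sign. The other 3 Egfl7 probe sets gave -0.3 (SE 0.27), -0.26 (SE 0.38) and -0.15 log units (SE 0.61), all with overlapping arrays. The transcript part that each probe set reads was not analysed here.

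The genes varied together over the 6 arrays, which share 3 groups and a common normalisation. Among the 9 genes other than Emcn, Pearson r over the 6 arrays ran from 0.623 (Cldn5 with Mmrn2) to 0.995 (Esam with Cdh5 or Cd34), with a median of 0.925 over 36 pairs. Cd34 and Esam followed the mean of the other members most closely (r = 0.994 and 0.99) and Mmrn2 least among the 9 (r = 0.816), while Emcn had r = -0.059. Against Tal1 the order was another: Egfl7 had r = 0.974, Pecam1 0.904 and Mmrn2 0.891, while Cldn5 had 0.732 and Eng 0.594. Kdr had r = -0.208 with the members' mean, and Etv2, an early activator of endothelial genes, also -0.206. Etv2 itself was at 10.27 and 10.6 in WT Scl+, 10.48 and 11.12 in WT Scl-, and 11.13 and 11.88 in SclKO; it was highest in SclKO.

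**Figure D4:**
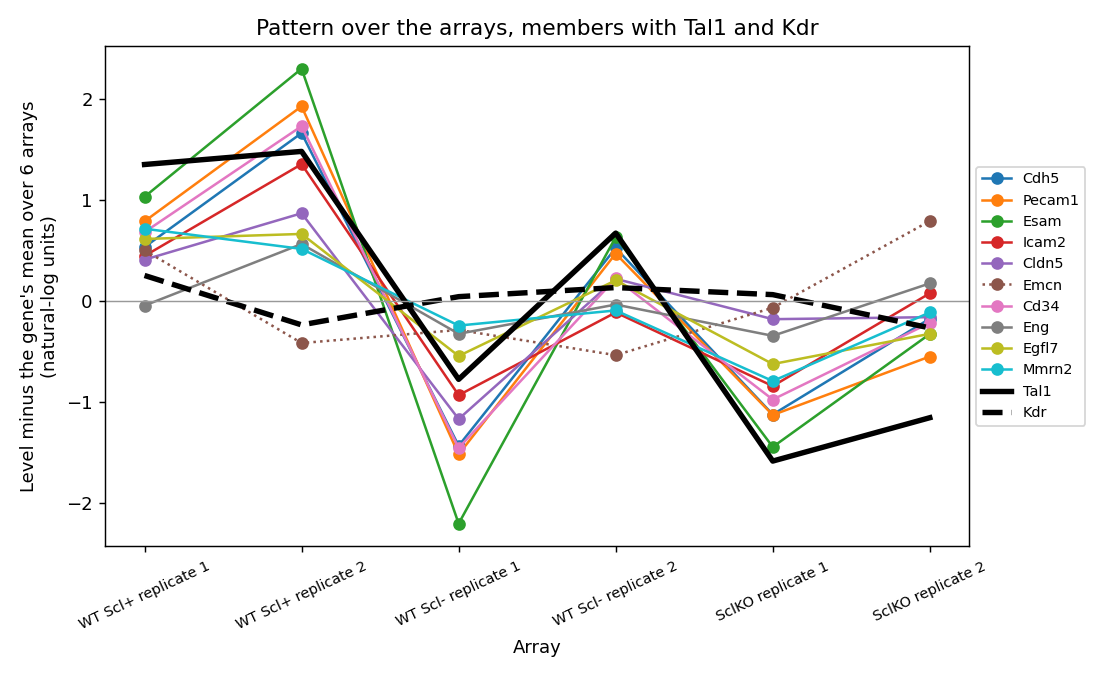
Level of each gene minus its own mean over the 6 arrays (natural-log units), for the 10 genes with Tal1 (solid black) and Kdr (dashed black); lines only join the values of a gene. Most genes peak on WT Scl+ replicate 2 and are lowest on WT Scl- replicate 1, Tal1 is lowest on the SclKO arrays, and Emcn (dotted, dim on every array) does not follow them.

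Of 2316 other genes that varied by at least 1 log unit, the 8 with the highest Pearson r to the members' mean over the 6 arrays were Ptk2b (0.997), Arap3 (0.996), Gimap8 (0.996), Tspan18 (0.992), Mtus1 (0.992), Flt1 (0.992), F2r (0.989) and Gadd45g (0.988). Arap3 was at 10.27 and 11.27 in WT Scl+, 7.49 and 9.39 in WT Scl-, and 8.2 and 9.14 in SclKO. Flt1, a VEGF receptor, was at 8.43 and 9.28 in WT Scl+, 6.45 and 8.23 in WT Scl-, and 7.01 and 7.69 in SclKO. Both repeat the members' order, with WT Scl- replicate 2 far above WT Scl- replicate 1, which follows from their selection by this r.

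The spread within groups was large for these genes. Over the 16 tested probe sets the residual SD had a median of 0.61 log units, against 0.21 over all tested, and 3.76% of all tested exceeded 0.61. Replicate 2 lay above replicate 1 for 8, 9 and 9 of the 9 tested genes in WT Scl+, WT Scl- and SclKO, as it did for 40.9%, 48.3% and 45.5% of all tested probe sets.

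Promoter sequences are shown for Cd34, Cldn5 and Egfl7, with its 3 annotated starts, and for Eng, whose range over the arrays was smallest. Eng also varied with the other members (r = 0.854 with their mean), so it is not a separate class. They are the 250 bases before each start in RefSeq's GRCm38.p6, where 5 of the 10 genes matched (Cldn5, Emcn, Cd34, Eng and Egfl7, with 7 starts in all). Capitals mark matches on either strand, overlaps allowed, to an E-box, a GATA and an ETS motif spelled out after the sequences.
Cd34, chr1:194938571-194938820, plus strand: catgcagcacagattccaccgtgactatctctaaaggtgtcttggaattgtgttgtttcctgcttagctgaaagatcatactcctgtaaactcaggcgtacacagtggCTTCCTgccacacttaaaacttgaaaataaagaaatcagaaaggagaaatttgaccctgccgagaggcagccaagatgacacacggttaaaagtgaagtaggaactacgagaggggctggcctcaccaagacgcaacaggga
Cldn5, chr16:18776597-18776846, plus strand: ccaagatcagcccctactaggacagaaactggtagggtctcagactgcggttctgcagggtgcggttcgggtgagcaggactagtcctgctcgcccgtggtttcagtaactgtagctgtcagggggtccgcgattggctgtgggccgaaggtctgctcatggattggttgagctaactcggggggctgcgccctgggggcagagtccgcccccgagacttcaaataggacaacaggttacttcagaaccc
Eng, chr2:32646345-32646594, plus strand: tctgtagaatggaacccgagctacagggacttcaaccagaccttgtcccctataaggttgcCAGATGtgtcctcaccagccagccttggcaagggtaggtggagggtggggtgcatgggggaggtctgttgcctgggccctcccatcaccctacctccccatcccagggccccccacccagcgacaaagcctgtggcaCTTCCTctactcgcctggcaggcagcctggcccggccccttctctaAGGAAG
Egfl7 start 1, chr2:26580833-26581082, plus strand: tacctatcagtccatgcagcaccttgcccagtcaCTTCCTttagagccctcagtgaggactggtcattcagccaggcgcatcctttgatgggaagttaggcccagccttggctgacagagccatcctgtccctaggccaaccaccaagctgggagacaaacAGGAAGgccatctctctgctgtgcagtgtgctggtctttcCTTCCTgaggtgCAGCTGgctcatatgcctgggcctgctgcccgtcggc
Egfl7 start 2, chr2:26583615-26583864, plus strand: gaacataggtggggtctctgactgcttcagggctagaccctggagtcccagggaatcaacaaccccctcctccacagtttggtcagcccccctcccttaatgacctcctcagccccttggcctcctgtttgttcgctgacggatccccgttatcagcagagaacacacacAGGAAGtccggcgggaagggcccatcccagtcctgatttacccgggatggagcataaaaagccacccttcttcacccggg
Egfl7 start 3, chr2:26586386-26586635, plus strand: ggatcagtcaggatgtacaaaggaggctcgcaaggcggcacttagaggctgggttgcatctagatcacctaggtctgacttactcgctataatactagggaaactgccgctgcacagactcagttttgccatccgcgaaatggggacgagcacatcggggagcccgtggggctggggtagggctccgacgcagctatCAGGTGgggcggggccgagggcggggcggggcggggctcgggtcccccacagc

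The E-box motif, CAGNTG, a form bound by Scl with its partners, was found before 3 of the 7 starts (Eng and Egfl7 starts 1 and 3), against 44.8% of 32851 promoters of the same length. The ETS motif, AGGAAG, was found before 5 of the 7 (Emcn, Cd34, Eng and Egfl7 starts 1 and 2), against 29.5% of all. The GATA motif, AGATAA, was found before 0 of the 7, against 9.99%. The Cldn5 window held none of the 3. A match is only a match of letters in this window and shows neither binding nor its absence.

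Other genes of endothelial junctions and surfaces were taken from lists written for this report. Of 26 other endothelial surface and vessel genes, 15 were tested and 9 were dim on all arrays. In WT Scl+ minus WT Scl-, 15 of these 15 differences were positive (43.1% of all tested), with a median of 0.94 log units. At an adjusted p under 0.05, 0 passed (0% of all tested). At an unadjusted p under 0.05, 8 were higher, against 4.44% of all tested (limma). Tie1 and Thbd passed the filter only through WT Scl+, where they are high. Outside it, Tie1 was above the limit on WT Scl- replicate 2 alone and Thbd on SclKO replicate 2 alone. Both are among the 15, the 8 and, in the next comparison, the 7. The largest were Ramp2, a receptor partner in adrenomedullin signalling (2.2 log units, SE 0.81), Plvap, a protein of endothelial diaphragms (2.13, SE 0.65), and Ecscr, an endothelial surface protein (1.95, SE 0.73). In SclKO minus WT Scl+, 15 of 15 were negative (43.1% of all tested), with a median of -0.94 log units. Of these, 0 passed (0.0106% of all tested). At an unadjusted p under 0.05, 7 were lower, against 5.68% of all tested (limma). There Ramp2 differed by -2.74 (SE 0.81), Tie1, an endothelial receptor kinase, by -1.98 (SE 0.33; -1.35 at the limit) and Ecscr by -1.57 log units (SE 0.73). In SclKO minus WT Scl- the median was 0.03 log units, and 8 of the 15 were positive (52.1% of all tested). Of the 15, 0 passed (0.0106% of all tested). An unadjusted p under 0.05 was found for 0 of them, and for 1553 of all 28362 tested (limma). Plvap (0.91, SE 0.65), Nos3, the endothelial nitric oxide synthase (-0.75, SE 0.49), and Tie1 (-0.66, SE 0.33; -0.12 at the limit) were the largest there. Cd93, a receptor for Mmrn2, was at 6.58 and 6.72, 6.42 and 6.71, and 6.35 and 6.58 in the 3 groups, while Clec14a, the other receptor, was dim on every array, as were Robo4, Sele, Selp, Vcam1, Nostrin, Esm1, Cav1 and Apold1.

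Partners inside the junction, most of them used by many tissues, had no common direction. Of 20 listed, 19 had a probe set and 16 were tested. The median difference was -0.05 log units for WT Scl+ minus WT Scl- (7 positive, 9 negative, where 43.1% of all tested were positive). It was 0.03 for SclKO minus WT Scl+ and 0.02 for SclKO minus WT Scl-, and 0 passed in any (limma). At an unadjusted p under 0.05 (limma), 2 were higher and 0 lower in the first, 2 and 2 in the second, and 0 and 0 in the third. Over all 28362 tested, 2660, 3696 and 1553 had such a p, higher and lower together. The catenin gene Ctnnb1, whose protein binds cadherin tails, lay between 12.46 and 12.55 on all 6 arrays. Largest in the first 2 comparisons was Ptprb, the endothelial phosphatase VE-PTP that binds VE-cadherin, at 6.97 and 7.34 in WT Scl+, 5.55 and 6.39 in WT Scl-, and 5.43 and 6 in SclKO. It differed by 1.19 (SE 0.34, limma adjusted p = 0.449), -1.44 (SE 0.34, limma adjusted p = 0.205) and -0.25 log units (SE 0.34) in the 3 comparisons. Also named by the rule of the 3 largest differences were Gja4, a gap-junction gene (0.73, SE 0.46) and Tjp1, a tight-junction scaffold (0.48, SE 0.19), in the first comparison, Gja4 (-0.9, SE 0.46) and Jup, plakoglobin (-0.76, SE 0.26), in the second, and Jup (-0.38, SE 0.26), Ctnnd1, p120-catenin (-0.35, SE 0.15), and Tjp1 (0.32, SE 0.19) in the third.

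Relatives of the members from the same gene families were mixed. Of 17 listed, 15 were tested, and 0 passed in any comparison (limma). At an unadjusted p under 0.05 (limma), 1 was higher and 3 lower in the first, 3 and 0 in the second, and 2 and 0 in the third. Over all 28362 tested, 2660, 3696 and 1553 had such a p, higher and lower together. The median differences of the relatives were 0.09, 0.13 and 0.21 log units. In contrast to Cdh5, the mesenchymal cadherins Cdh11 and Cdh2 were low in WT Scl+. Cdh11 was at 8.44 and 6.29 in WT Scl+, 9.96 and 9.17 in WT Scl-, and 10.28 and 9.83 in SclKO, with differences of -2.2 (SE 0.68) and 2.69 log units (SE 0.68) in the first 2 comparisons. Cdh2 was at 9.79 and 9.24, 10.89 and 10.56, and 10.94 and 10.93, with differences of -1.21 (SE 0.23, limma adjusted p = 0.439) and 1.43 log units (SE 0.23, limma adjusted p = 0.139). Tgfbr3, another co-receptor for TGF-beta ligands like Eng, differed by 1.39 (SE 0.54) and Cdh1, the epithelial cadherin, by 1.29 log units (SE 0.54) in the first comparison, and Emilin2 by 1 log unit (SE 0.3; 0.44 at the limit) in the second. In the third, the epithelial claudins Cldn6 (1.65, SE 0.68) and Cldn7 (1.1, SE 0.56) and Cdh1 (1.47, SE 0.54) were the largest, unlike Cldn5 (0.3, SE 0.44).

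Markers of other cell types also differed between the groups. The mean level of 7 blood markers was 6.15 and 6.33 in WT Scl+, 5.21 and 5.7 in WT Scl-, and 5.03 and 5.1 in SclKO, with Ptprc and Pf4 dim on every array. In the first comparison 4 of the 5 tested were higher in WT Scl+ without overlap (16.6% of all tested). They were led by the embryonic globin Hbb-bh1 (2.67, SE 0.54), the platelet integrin Itga2b (1.12, SE 0.36) and Runx1 (0.98, SE 0.31). Spi1, also among the 4, passed the filter only through WT Scl+. Gp9 was instead lower in WT Scl+ without overlap (-0.28, SE 0.18), as 21.2% of all tested were. The mean of 5 mesoderm markers, Kdr included, ran the other way, at 8.9 and 8.21, 10.08 and 9.66, and 10.23 and 10.06, and 4 of the 5 were lower in WT Scl+ than in WT Scl- without overlap (21.2% of all tested); Eomes, Mixl1 and Mesp1 gave -1.97 (SE 0.46), -1.92 (SE 0.33) and -1.47 log units (SE 0.23). The mean of 4 pluripotency markers was 7.28 and 5.33, 6.64 and 5.85, and 7.35 and 7.06, and 3 of the 4 were higher in SclKO than in WT Scl- without overlap (21.7% of all tested). Of these, Sox2 passed the filter only through SclKO, since outside it WT Scl+ replicate 1 alone was above the limit. Smooth muscle and pericyte markers (6 tested) lay between 5.97 and 6.71, heart markers (3) between 5.95 and 6.71, endoderm markers (4) between 4.95 and 5.66, and epithelial markers (4) between 9.83 and 10.66 on average. Single markers within these lists differed more, in WT Scl+ minus WT Scl- and SclKO minus WT Scl+ by -1.69 and 1.53 log units for Rgs5 (SE 0.42), by -0.49 and 0.71 for Pdgfrb (SE 0.24), by -1.43 and 1.18 for Myl7 (SE 0.39), by 1.51 and -1.16 for Sox17 (SE 0.48) and by 0.51 and -1.08 for Krt19 (SE 0.32). The named markers do not stand for their lists. In WT Scl+ minus WT Scl-, 3 of 6 smooth muscle and pericyte, 2 of 3 heart, 3 of 3 endoderm and 2 of 4 epithelial markers tested were above 0 (43.1% of all tested). In SclKO minus WT Scl+, 4 of 6, 3 of 3, 1 of 3 and 3 of 4 were above 0 (56.9% of all tested). The part of these cell types in the members' differences was not tested.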

How the data were processed

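Per the submitters' processing notes the authors used RMA, affy and limma, with no version given; the deposited values are probe set signals of 6 arrays, not on a log scale and of unstated base. Their natural log was taken here. The design had foreseen values of unknown scale, and the test was kept. Of 45101 probe sets, 64 were controls and were left out; the platform annotation gave 1 symbol for 34945 others, several for 932 and none for 9211, some controls included. The test took in the 28362 probe sets that exceeded the 40th percentile of an array for 2 or more arrays. A mean per group was fitted with limma 3.58.1 (R 4.3.3) to all 6 arrays (residual degrees of freedom 3, prior 3.13), two-sided with eBayes, with Benjamini-Hochberg adjustment over all tested probe sets. The number of arrays limits the precision. "At the limit" sets dim values to the 40th percentile.

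The members, lists and tests were chosen with earlier results of these data known. Named from the lists of junction partners, other endothelial surface genes and family relatives were the 3 largest differences per list and comparison, since none passed; Cd93, Clec14a and the other dim genes, Ctnnb1, Etv2 and Arap3 and Flt1 with values, and the single markers of other cell types, were picked after their values were seen. Tried as alternatives were a block for the replicate number, other filters, normalisations, moderation and weights, 1 probe set per gene, and leaving out each array. The number of columns of per-sample values left unused was 0. Promoters and symbols came from RefSeq tables of GRCm38.p6.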

Additional observations from a re-analysis of the deposited data

How the results depend on the processing

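In WT Scl+ minus WT Scl- and in SclKO minus WT Scl+, 2 of 244 values each turned sign under the alternatives. In SclKO minus WT Scl-, 24 of 244 turned, among them values with an array left out or with dim values at the limit. Many alternatives could not turn a sign. The block, filters, 1 probe set per gene, moderation, weights and leaving out arrays of the third group kept each difference as it was. Where the arrays of 2 groups do not overlap, leaving 1 out cannot turn it either. These counts therefore do not measure robustness. Adjusted p-values of the tested members (limma) ranged over the alternatives from 0.0633 to 1, from 0.0319 to 0.987 and from 0.39 to 1 in the 3 comparisons.

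Leaving out 1 array at a time, the median over the 10 genes ranged from 0.64 to 1.82 log units in WT Scl+ minus WT Scl- (0.64 without WT Scl- replicate 1), from -1.57 to -0.9 in SclKO minus WT Scl+ and from -0.54 to 0.66 in SclKO minus WT Scl-. In WT Scl+ minus WT Scl-, Eng 1432176_a_at ranged from -0.05 to 0.59 and Mmrn2 1437123_at from -0.01 to 1.01, and in SclKO minus WT Scl+ Eng 1432176_a_at ranged from -0.27 to 0.22. In SclKO minus WT Scl- the ranges were -1.18 to 0.79 and -0.77 to 1.94 for Cdh5, -1.31 to 0.68 for Pecam1, -1.52 to 1.32 for Esam, -0.32 to 0.6 for Icam2, -0.39 to 0.99 for Cldn5, -0.82 to 0.86 for Cd34, -0.16 to 0.36 and -0.08 to 0.56 for Eng, -0.68 to 0.07, -0.74 to 0.22 and -1.14 to 0.84 for Egfl7 other than 1421335_a_at, and -0.62 to 0.06, -0.88 to 0.14 and -0.51 to 0.6 for Mmrn2. With dim values at the limit, Cd34 and Mmrn2 1439518_at gave -0.03 and -0.07 there.

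Over all probe sets limma called 0 higher and 0 lower in WT Scl+ minus WT Scl-, with 0 to 9 and 0 to 37 when an array was left out (9 and 37 without WT Scl+ replicate 1). SclKO minus WT Scl+ had 1 and 2, and 0 to 877 and 0 to 302 with an array left out (877 and 302 without WT Scl+ replicate 1). A group left with 1 array is assumed to vary like the others, and without WT Scl+ replicate 1 that array is replicate 2, which stands apart. There a 60th percentile filter gave 2 higher, 1 probe set per gene 0 lower, eBayes with trend and robust settings 12 and 20, and a fit to the 4 arrays of these groups 26 lower. SclKO minus WT Scl- had 1 and 2, with 0 to 1 and 0 to 2 when an array was left out. It had 2 and 4 with the 60th percentile filter or with dim values at the limit, 3 and 8 with trend and robust settings, 3 and 4 with array weights, and 0 lower with 1 probe set per gene.

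With the replicate number as a block, SclKO minus WT Scl+ had 2 probe sets higher and 4 lower, and 0 members passed. The lowest adjusted p of a member was 0.173, 0.0792 and 0.64 in the 3 comparisons (limma). The block lowered the SE of Cdh5 1422047_at in WT Scl+ minus WT Scl- from 0.72 to 0.28. The correlations of the replicate gaps were 0.212, 0.238 and 0.205 over 28362 probe sets. No label says that the replicate numbers pair the samples, and there are only 2 pairs, so the main fit has no block. Its SEs therefore count any gap that the groups share between replicates as spread. Signal near background limits Cd34, Emcn and 2 of the Mmrn2 probe sets most.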
